A study of Homo sapiens with 12 samples.

Results

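The genes described here are 40 genes of homologous recombination and related DNA damage repair, chosen by gene symbol from a list. They are 40 of 60603 genes in a table of read counts from poly(A) RNA-seq of T24 cells, an established human bladder carcinoma line. The 12 libraries form 4 groups of 3. Untreated WT cells and WT cells given 5-Ad-IAA are the WT groups, and untreated NS1 cells and NS1 cells given 5-Ad-IAA are the NS1 groups. WT and NS1 are the genotype labels, all 4 groups are T24 cells, and no allele or construct is spelled out for NS1. The series is about AlissAID, a method for degrading untagged proteins on demand, and 5-Ad-IAA, a synthetic relative of the plant hormone auxin, is its chemical inducer. The labels used here give no dose or duration, do not name the targeted protein and do not say whether the NS1 line is 1 clone. No targeted transcript could therefore be used as a check of the labels. Nothing says that the 3 replicates of a group came from separate cultures, so the p-values measure the spread between these libraries, which may be technical.

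Homologous recombination repairs a DNA double-strand break by copying an intact sister chromatid, and it is therefore tied to S and G2 phase. BRCA1, BRCA2 and PALB2 prepare resected DNA for strand exchange, the Fanconi anaemia proteins unhook DNA interstrand crosslinks, and the kinases ATM and ATR signal damage to the cell cycle through CHEK2 and CHEK1. Non-homologous end joining religates broken ends with the KU proteins, DNA-PKcs, XRCC4 and LIG4 and can act in all phases, and mismatch repair removes replication errors. The members were divided by role into 11 genes of strand exchange, 3 of end resection and helicase processing, 11 of the Fanconi anaemia pathway, 8 of damage sensing and checkpoint signalling, 5 of end joining and 2 of mismatch repair. The first 3 roles together, 25 genes, are called cell-cycle-linked repair below.

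Library totals ran from 10593934 to 20266996 counts, and replicate 1 was the deepest library of every group. All 40 members passed the filter on low counts, and the lowest count of any member in any library was 27, for XRCC2. Levels are given as CPM, the counts of a gene relative to the library total, scaled by TMM, a factor that corrects for differences in library composition. A gene was called when the Benjamini-Hochberg adjusted p of edgeR's quasi-likelihood test, over 17775 genes, was under 0.05, and errors of log2 fold changes are standard errors (SE). The cells had the simple-epithelial keratins KRT7, KRT8 and KRT18 at group means of 870.3 to 4706 CPM, while CDH1 was near 0. Of 11 urothelial markers 4 passed the filter, among them GATA3 at group means of 29.8 to 78.2 CPM, and UPK3A, TP63 and KRT5 had no count in any library. Exons of 9 members share 10% or more of their bases with another gene, which is named beside RAD50, RAD54B, RAD54L and XRCC3 below. For FANCA (23.6%), FANCL (18.7%), ATR (16.4%), MSH6 (16.2%) and FANCF (11.3%) the other gene is on the opposite strand. BRCA1, RAD51AP1, RBBP8, FANCD2, CHEK2, MRE11, XRCC6 and PMS2 have named pseudogenes or copies, and their reads may be split with them. In bulk RNA, fewer cells with a transcript and less of it per cell cannot be told apart.

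Addition of 5-Ad-IAA to NS1 cells was followed by lower levels of cell-cycle-linked repair transcripts. Of the 40 members 13 were called lower and 0 higher, where 3.39% of all genes tested were called lower and 2.76% higher. The called members were BLM, RAD51AP1, FANCI, UBE2T, RAD54L, BRCA1, FANCD2, FANCM, TOPBP1, RAD54B, CHEK1, XRCC3 and MRE11. The median log2 fold change was -0.50 over the 40 members and 0.0055 over all genes tested. By role, 10 of the 25 cell-cycle-linked genes were called (median -0.63), as were 3 of the 8 sensing and checkpoint genes (median -0.23) and 0 of the 7 end joining and mismatch repair genes (median -0.21). These medians are descriptions, and the difference between the roles was not tested as such.

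Same-numbered untreated and treated libraries of a line had positively correlated deviations from their group means, so the fit with the number as a block was also made. That fit assumes that the number pairs libraries, which the labels do not say. With blocks set separately in WT and NS1, called the block within lines below, 28 members were lower, against 12.8% of all genes, among them 23 of the 25 cell-cycle-linked genes, 4 of the 8 sensing and checkpoint genes, XRCC5 alone of the end joining genes and neither mismatch repair gene. With a single block for each number 21 members were lower, against 7.12% of all genes. The call count also depended on which libraries were present. Without replicate 1 it was 13, against 5.22% of all genes, and without replicate 2 or without replicate 3 of every group it was 0, where 22 and 18 members had an unadjusted p under 0.05. In these fits 0 of all genes were called, and 2047 of 18070 and 2048 of 18186 had an unadjusted p under 0.05. Leaving out 1 NS1 library at a time gave 5 calls without treated replicate 3, 6 without untreated replicate 3, 7 without untreated replicate 2, 8 without replicate 1 of either group and 11 without treated replicate 2. Over all genes, 18017 to 18179 tested, the first 3 of these fits called 214, 262 and 247 lower. The number was 342 without untreated replicate 1, 524 without treated replicate 1 and 303 without treated replicate 2. BLM, RAD51AP1, FANCI, UBE2T and CHEK1 were called in each of these 6 fits, and FANCM and XRCC3 in none.

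**Figure D1:**
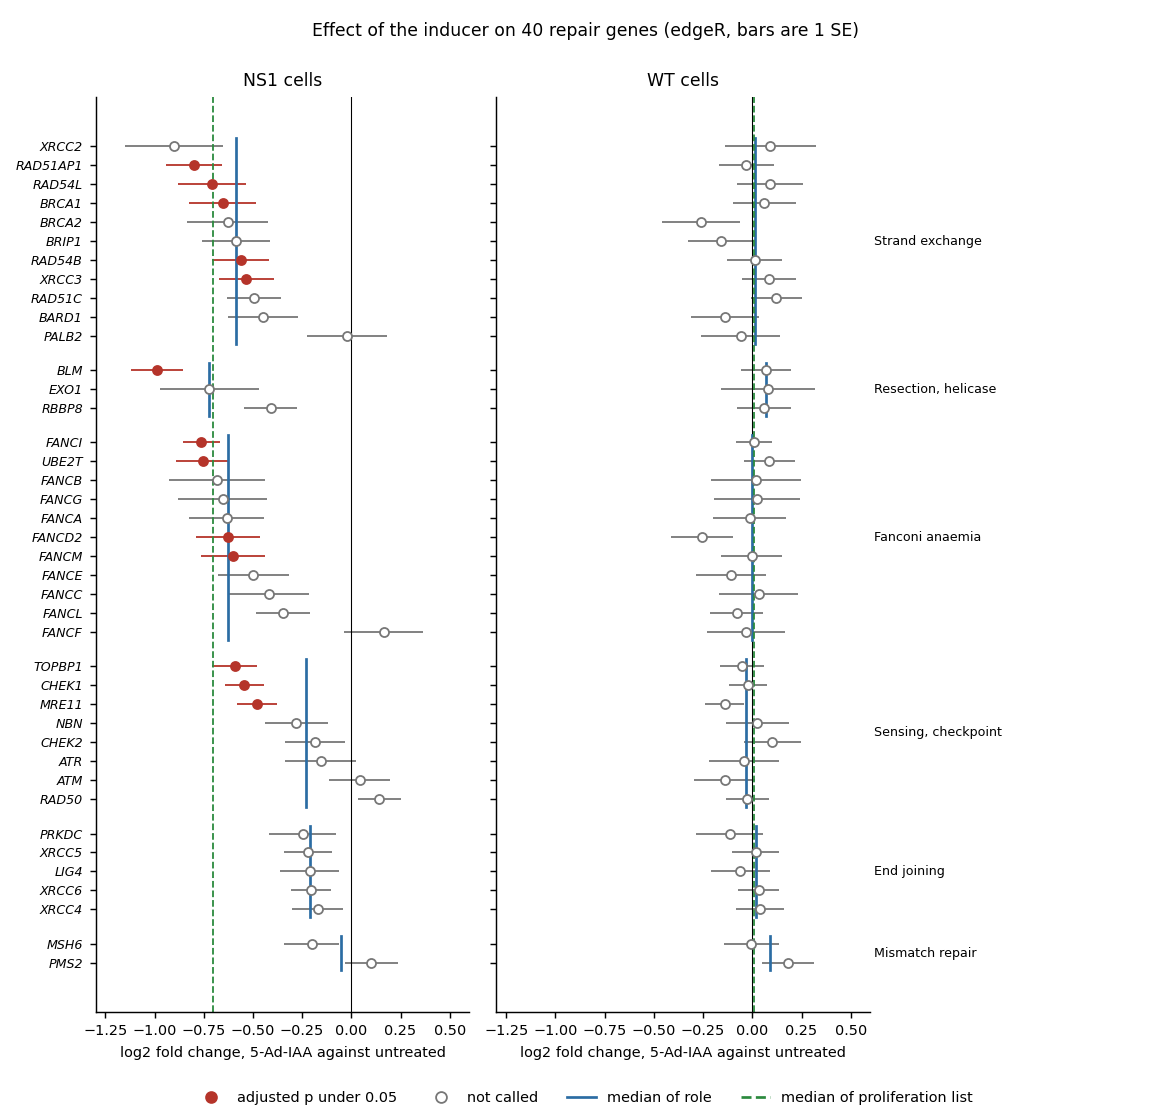
Log2 fold change with 1 SE (horizontal axis) of each of the 40 members, ordered by role, for 5-Ad-IAA against untreated cells in NS1 (left) and WT (right), 3 libraries a group. Filled points are called, blue lines are the median of a role and the dashed line is the median of a list of 26 proliferation genes. In NS1 cells the 13 called genes lie between -0.99 and -0.48, the 5 end joining genes between -0.25 and -0.17, and in WT cells all 40 lie between -0.26 and 0.18.

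Among the helicase and resection genes, BLM (ENSG00000197299.12, chromosome 15), the helicase that dissolves joined recombination intermediates, had the lowest log2 fold change of the 40 members. It stood at 23.9, 24.1 and 23.9 CPM in untreated NS1 cells and at 10.97, 13.4 and 11.9 CPM with 5-Ad-IAA. The groups did not overlap, and the highest treated library was well under the lowest untreated one. The log2 fold change was -0.99 (SE 0.133, adjusted p = 0.00279), and it lay between -1.07 and -0.92 when single libraries were left out. EXO1, an exonuclease that extends resection, had 20, 20.4 and 20 CPM untreated and 8.32, 15.4 and 13.3 CPM treated. Its treated libraries were all lower but spread widely, and it was not called (adjusted p = 0.11), whereas it was with the block within lines (adjusted p = 0.000778) and with no filter on low counts (adjusted p = 0.0007). RBBP8, which encodes the resection factor CtIP, had 54.3, 42.5 and 42.8 CPM untreated and 35.6, 37.0 and 32.5 CPM treated, also without overlap and not called (log2 fold change -0.41, adjusted p = 0.0949, and 0.00291 with the block within lines).

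In the strand exchange group 5 of 11 genes were called and 10 of 11 had groups that did not overlap, where 14% of all genes tested were lower without overlap. RAD51AP1 (ENSG00000111247.14, chromosome 12, 4538798 to 4560048), which promotes strand exchange, fell from 18.2, 21.7 and 22.3 CPM to 10.2, 13.5 and 12.1 CPM, or by -0.80 in log2 fold change (SE 0.143, adjusted p = 0.00742). RAD54L, a motor protein that helps the broken strand pair with its template, had 25.5, 26.2 and 29.9 CPM untreated and 12.1, 18.9 and 19.2 CPM treated. The treated replicate 1 was the lowest of these, and leaving it out moved the log2 fold change of RAD54L from -0.71 to -0.51 and ended the call. BRCA1, the ubiquitin ligase subunit that directs breaks towards recombination, went from 24.01, 23.3 and 19.7 CPM to 12.6, 16.7 and 13.6 CPM (log2 fold change -0.65, SE 0.171, adjusted p = 0.0398).

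Also called in the group were RAD54B (log2 fold change -0.56), a relative of RAD54L, and XRCC3 (-0.53), which acts in a complex with RAD51C. The exons of RAD54B share 59.1% of their bases with FSBP on the same strand, and those of XRCC3 share 76.7% with KLC1 on the opposite strand, so reads of these genes may be assigned to either or to both. RAD54L shares 25.1% with LRRC41 on the opposite strand, whose log2 fold change was 0.13. The log2 fold change of KLC1 itself was -0.02 (adjusted p = 0.93) and that of FSBP was -0.53 (adjusted p = 0.0725). FSBP had a mean of 13.1 CPM over the 12 libraries, near the 14.07 CPM of RAD54B, and may not be a separate measurement. XRCC2 (-0.90) and RAD51C (-0.49), which assist strand exchange, missed the threshold narrowly with adjusted p of 0.0514 and 0.0508. BRCA2, a mediator of strand exchange, the helicase BRIP1, and BARD1, the partner of BRCA1, had log2 fold changes of -0.63, -0.59 and -0.45 and adjusted p of 0.0906, 0.0617 and 0.166. All of these 5 genes were called with the block within lines. PALB2, which links BRCA1 to BRCA2, stood apart, with 11.05, 17.1 and 13.8 CPM untreated and 10.2, 16.6 and 14.9 CPM treated, overlapping groups and a log2 fold change of -0.02 (SE 0.204).

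The Fanconi anaemia genes had a median log2 fold change of -0.63, with 4 of 11 called. FANCI (ENSG00000140525.17, chromosome 15, 89243949 to 89317261), which pairs with FANCD2 in the complex that is ubiquitinated at crosslinks, had the smallest standard error of all 40 members in this comparison. It went from 121.9, 121.0 and 118.1 CPM to 72.9, 74.6 and 65.3 CPM, or by -0.76 in log2 fold change (SE 0.0932, adjusted p = 0.0017). UBE2T, the conjugating enzyme that performs that ubiquitination, went from 16.5, 20.1 and 22.9 CPM to 10.8, 11.8 and 12.6 CPM (log2 fold change -0.75, SE 0.134, adjusted p = 0.00719). FANCD2 (-0.63) and FANCM (-0.60), a DNA translocase that anchors the core complex, were called at adjusted p of 0.038 and 0.0439.

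The core complex members FANCB (-0.68), FANCG (-0.65), FANCA (-0.63), FANCE (-0.50), FANCC (-0.42) and FANCL (-0.35), the last its ubiquitin ligase subunit, were not called, with adjusted p from 0.0674 to 0.264. All 6 were called with the block within lines. In FANCA and FANCG replicate 1 was low in both groups: FANCG had 21.4, 33.7 and 36.0 CPM untreated and 12.6, 22.5 and 23.0 CPM treated. The groups of FANCG thus overlapped, although each treated library was below the untreated one of the same number. The median of the pathway was -0.44 without the treated NS1 replicate 1. FANCF, another core member, ran the other way at 0.16 (SE 0.201, adjusted p = 0.718) and was not called in either blocked fit.

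Promoter sequences are shown for the 3 called members with the lowest log2 fold changes that the RefSeq promoter table holds, and for XRCC6 as the end joining gene with the highest CPM. They are from RefSeq on GRCh38.p14, written 5′ to 3′ on the strand of the gene, begin 250 bases before the RefSeq start and stop before the first protein-coding transcript start of GENCODE. The windows are chr15:90717096-90717326 (plus strand) for BLM, chr12:4538640-4538889 (plus) for RAD51AP1, chr1:202341967-202342186 (minus) for UBE2T and chr22:41621045-41621118 (plus) for XRCC6. Capitals mark the E2F core, searched on both strands as TTCCCGC and as its variants TTGGCGC, with the variant TTCGCGC and the variant TTGCCGC, a motif found in promoters of genes transcribed at the start of S phase.
BLM: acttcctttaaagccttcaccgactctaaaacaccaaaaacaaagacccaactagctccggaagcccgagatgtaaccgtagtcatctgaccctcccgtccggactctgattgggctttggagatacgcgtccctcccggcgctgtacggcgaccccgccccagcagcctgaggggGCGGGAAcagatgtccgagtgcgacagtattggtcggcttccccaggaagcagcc
RAD51AP1: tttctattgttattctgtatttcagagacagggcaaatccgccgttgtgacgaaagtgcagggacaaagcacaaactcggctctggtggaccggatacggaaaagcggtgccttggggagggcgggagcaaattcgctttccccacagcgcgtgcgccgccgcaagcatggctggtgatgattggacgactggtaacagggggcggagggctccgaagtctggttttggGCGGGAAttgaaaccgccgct
UBE2T: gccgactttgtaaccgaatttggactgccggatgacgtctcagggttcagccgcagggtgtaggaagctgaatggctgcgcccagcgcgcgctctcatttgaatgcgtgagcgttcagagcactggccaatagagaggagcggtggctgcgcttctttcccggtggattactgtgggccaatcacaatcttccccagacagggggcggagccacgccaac
XRCC6: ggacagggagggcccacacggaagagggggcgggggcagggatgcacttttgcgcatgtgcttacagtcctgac
The printed core of BLM begins 74 bases and that of RAD51AP1 21 bases before the start. BLM has 2 more cores outside the printed stretch, which begin 4 and 23 bases after the start. UBE2T has none, and that of XRCC6 begins 43 bases after the start, outside the printed stretch.

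A promoter window of 300 bases (250 before and 50 after the start) was held for 35 of the 40 members. An E2F core was present in 19 of these 35 (54.3%), against 13.1% of all 27305 promoters and 20.6% of the 11052 promoters of genes tested. The share was 65.2% (15 of 23) among cell-cycle-linked genes, 14.3% (1 of 7, TOPBP1) among sensing and checkpoint genes and 60% (3 of 5) among end joining and mismatch repair genes, the latter being XRCC6, MSH6 and PMS2. The core did not separate called from other members: 6 of 11 called members (54.5%) and 13 of 24 others (54.2%) had one. A CCAAT box (CCAAT on either strand) was present in 8 of 11 called members and 10 of 24 others, against 35.7% of all promoters and 36.7% of those of genes tested. By role it was in 10 of 23 cell-cycle-linked genes (43.5%) and 4 of 7 sensing and checkpoint genes (57.1%). Among end joining and mismatch repair genes, none of them called, it was in 4 of 5 (80%). A cell cycle homology element (TTTGAA or TTCGAA) was present in 4 of 35 (11.4%), against 16.6% of all promoters and 11.2% of those of genes tested. An E2F core written GCGCCAA can share its last letters with a CCAAT box. A match of letters is a description of the window and no evidence of a bound factor.

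Among sensing and checkpoint genes the response was divided. CHEK1, the kinase that ATR activates at stalled forks, had 40.5, 36.9 and 35.8 CPM in untreated NS1 cells and 26.2, 26.6 and 24.8 CPM with 5-Ad-IAA, with no overlap (log2 fold change -0.54, SE 0.0986, adjusted p = 0.00784). TOPBP1 (chromosome 3, 133598175 to 133662380), the activator of ATR, went from 59.2, 55.0 and 54.4 CPM to 39.3, 36.6 and 36.0 CPM (-0.59, SE 0.115, adjusted p = 0.0103). MRE11 (chromosome 11, 94415578 to 94493908), the nuclease of the break-sensing complex with RAD50 and NBN, went from 37.6, 31.2 and 34.7 CPM to 26.7, 23.7 and 23.8 CPM (-0.48, SE 0.101, adjusted p = 0.0153). The other 5 genes of the group, ATM, ATR, CHEK2, NBN and RAD50, had log2 fold changes from -0.28 to 0.14 and were not called. The kinase ATM had 51.2, 54.7 and 49.7 CPM untreated and 54.7, 59.5 and 46.2 CPM treated, a log2 fold change of 0.04 (SE 0.155). Among these 5, NBN was called with the block within lines (log2 fold change -0.28, adjusted p = 0.0137).

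End joining and mismatch repair transcripts had log2 fold changes from -0.25 to 0.10, and none was called. Of these 7 genes 3, XRCC6, XRCC4 and MSH6, were lower without overlap, against 14% of all genes tested. Of the 25 cell-cycle-linked genes 20 were lower without overlap. XRCC6 and XRCC5, which encode the KU70 and KU80 subunits that cap DNA ends, had the highest levels per exon length of the 40 members, at 175 and 86.4 CPM per kb over the 12 libraries. XRCC6 had 530.5, 535.8 and 549.9 CPM untreated and 476.2, 449.9 and 476.1 CPM treated in NS1 cells, a small shift without overlap (log2 fold change -0.21, SE 0.103, adjusted p = 0.285). XRCC5 had 537.1, 419.7 and 448.1 CPM untreated and 460.5, 365.6 and 379.7 CPM treated, overlapping but lower in every replicate (log2 fold change -0.22, adjusted p = 0.334, and 0.0313 with the block within lines). PRKDC, which encodes DNA-PKcs, LIG4, the ligase, and XRCC4, its scaffold, had log2 fold changes of -0.25, -0.21 and -0.17, each with a standard error of 0.13 to 0.169. MSH6, a subunit of the mismatch recognition complex, had 135.2, 153.7 and 142.4 CPM untreated and 108.4, 132.4 and 134.5 CPM treated (-0.20, adjusted p = 0.467), and PMS2, an endonuclease subunit, was at 0.10 (adjusted p = 0.743).

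**Figure D2:**
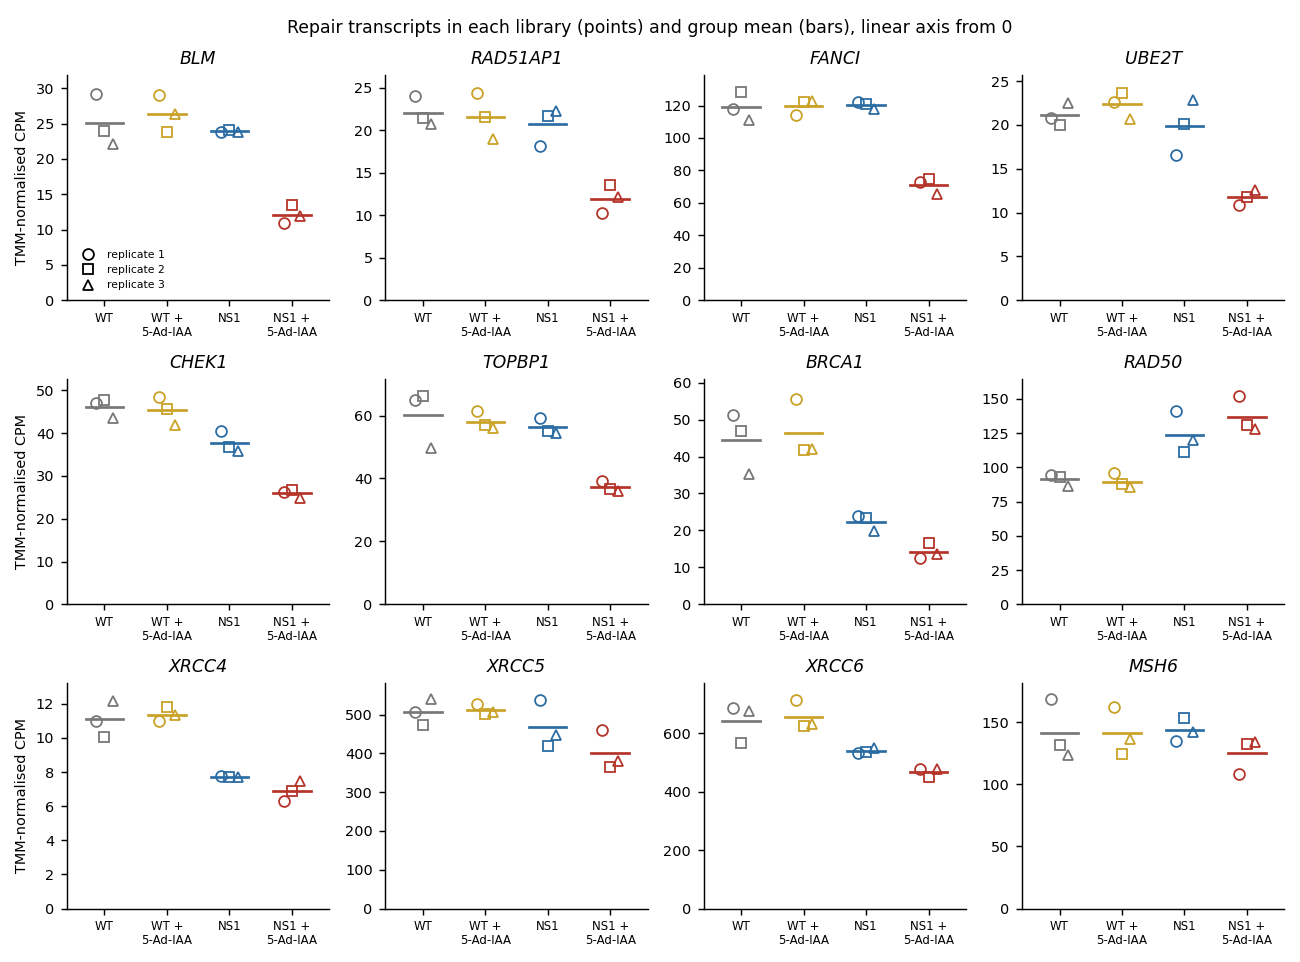
TMM-normalised CPM (vertical axis, linear from 0) of 12 members in each of the 12 libraries, by group. Points are libraries, marked by replicate, and bars are group means. The treated NS1 libraries of BLM, RAD51AP1, FANCI, UBE2T, CHEK1, TOPBP1, BRCA1, XRCC4 and XRCC6 lie below all other libraries. BRCA1, XRCC4 and RAD50 already differ between the untreated lines.

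Further genes of these pathways were taken from lists of symbols. Of 32 further recombination genes 1 was called lower, MCM8 (log2 fold change -0.63), a helicase of recombination, as was 1 of 12 further Fanconi genes, USP1 (-0.57), which removes ubiquitin from FANCD2. Of 17 further end joining genes 1 was called, POLQ (-0.81), the polymerase of the alternative, homology-mediated route. Of 16 further checkpoint genes 2 were called, the phosphatase CDC25A (-0.87) and the damage-marking histone H2AX (-0.54). No gene of these 4 lists was called higher, and 3.39% of all genes tested were called lower. Their medians were -0.26 (recombination), -0.19 (Fanconi), -0.09 (end joining) and -0.25 (checkpoint). With the block within lines 16 of the 32 recombination, 5 of the 12 Fanconi, 4 of the 17 end joining and 8 of the 16 checkpoint genes were lower, against 12.8% of all genes. In that fit RECQL5, a helicase, and WDR48, the partner of USP1, were higher (log2 fold change 0.32 and 0.29, adjusted p = 0.0317 and 0.0337).

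Markers of proliferating cells moved with the repair genes. All 26 genes of a list that includes MKI67, CCNB1 and MCM2 had negative log2 fold changes in NS1 cells with 5-Ad-IAA (-0.88 to -0.55, median -0.70). Of these 21 were called lower, against 3.39% of all genes tested. The median level of this list, relative to untreated WT cells on the log2(CPM + 1) scale, was between -0.24 and -0.17 in the untreated NS1 libraries and between -0.98 and -0.85 in the treated ones. For the cell-cycle-linked repair genes the same measure was between -0.18 and -0.06 untreated and between -0.90 and -0.52 treated. For the 5 end joining genes it was 0.09, -0.26 and -0.17 in untreated NS1 replicates 1 to 3 and -0.13, -0.47 and -0.41 in the treated ones, so the ranges overlapped but each treated library was below the untreated one of the same number. For the 2 mismatch repair genes it was -0.14, -0.10 and -0.07 untreated and -0.23, -0.09 and -0.17 treated, lower in replicates 1 and 3 only. The part of proliferation in the repair genes' change was not tested. Of 10 markers of leukocytes, endothelium and fibroblasts, 4 passed the filter, and DCN had no count in any library. PECAM1 (0.206 to 1.93 CPM, group means) and PDGFRB (2.31 to 11.8 CPM) were called higher in the same comparison, against 2.76% of all genes tested. The summed CPM of these 10 ranged from 10.3 to 21.7 in untreated and from 19.5 to 40.02 in treated NS1 libraries, and from 21.4 to 28.5 in WT libraries. Their part in the result was not tested.

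**Figure D3:**
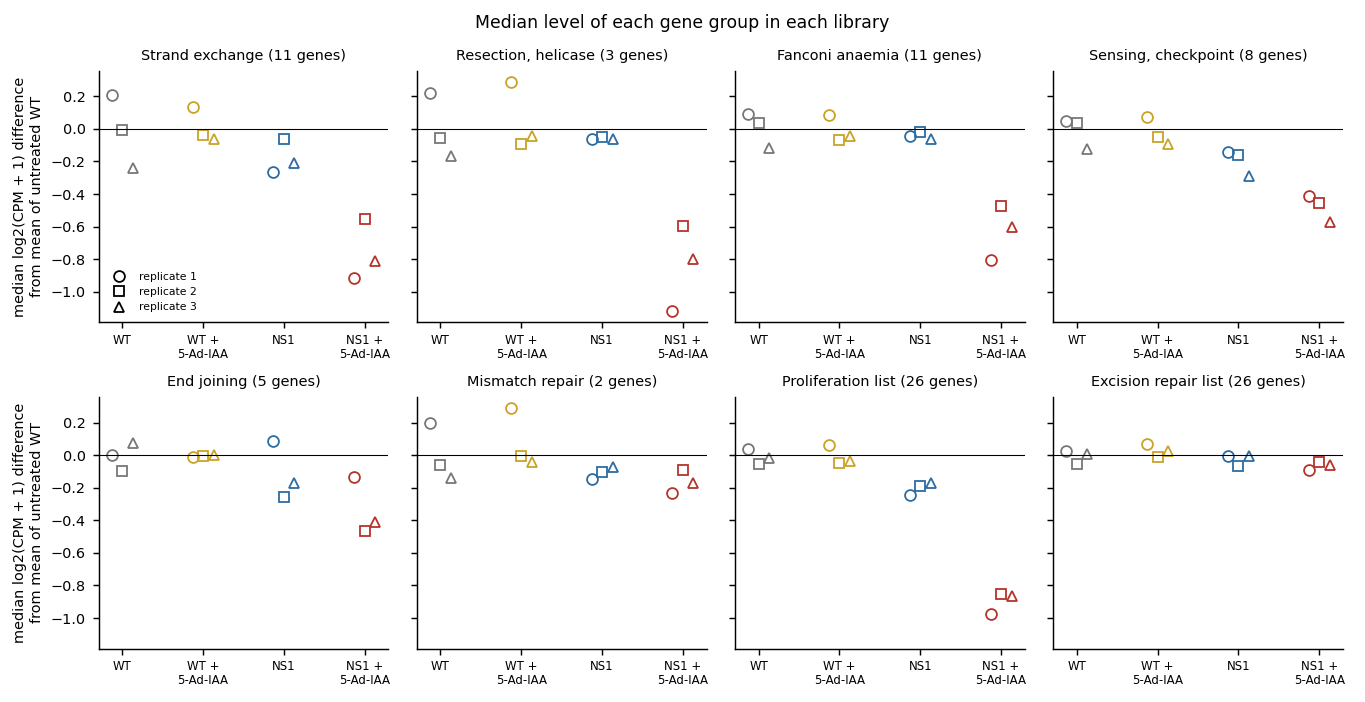
Median difference of each gene group from the mean of untreated WT cells (vertical axis, log2(CPM + 1) scale) in each of the 12 libraries, by group. Points are libraries, marked by replicate. The treated NS1 libraries lie at -0.91 to -0.55 for strand exchange, -0.81 to -0.47 for the Fanconi genes, -0.98 to -0.85 for the proliferation list, -0.47 to -0.13 for end joining and -0.23 to -0.09 for mismatch repair.

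In WT cells no member was called with 5-Ad-IAA. None of the 40 had an unadjusted p under 0.05 by edgeR (1 with the block within lines, also not called), DESeq2 also called 0, and the share of all genes called was 0%. The log2 fold changes ran from -0.26 for BRCA2 to 0.18 for PMS2, with a median of 0.0022. BLM had 29.2, 24.02 and 22.1 CPM untreated and 29.01, 23.8 and 26.4 CPM treated (log2 fold change 0.07, SE 0.128), and FANCI had 117.6, 128.1 and 111.3 CPM untreated and 114.2, 121.9 and 122.8 CPM treated (0.0076, SE 0.0922). MRE11 was the 1 member whose groups did not overlap, against 1.73% of all genes lower without overlap. It had 44.0, 42.8 and 46.5 CPM untreated and 40.6, 41.0 and 39.4 CPM treated (log2 fold change -0.14, SE 0.0991, adjusted p = 1). The standard errors of the members, 0.0922 to 0.239, bound what this comparison could have shown.

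The difference between the inducer effects of the lines, tested as an interaction of genotype and inducer, was called for 0 of 40 members, where 0.0113% of all genes were called in each direction. Of the members, 18 had an unadjusted p under 0.05, and DESeq2 called 5. The share of all genes is not given for either count, so neither is read as a result about the members. BLM (interaction log2 value -1.06, SE 0.184) and FANCI (-0.77, SE 0.131) came closest, each with an adjusted p of 0.0534, followed by UBE2T (-0.84, SE 0.186) with 0.0849. With the block within lines 18 members were called, all lower in NS1, against 7.06% of all genes. These were 15 of the 25 cell-cycle-linked genes and 3 sensing and checkpoint genes, and none of the 7 end joining and mismatch repair genes. With a single block 6 were called and without replicate 1 5, against 1.86% and 1.53% of all genes.

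Without inducer 6 of the 40 members were already called between the NS1 line and WT, where 2222 of all 17775 genes tested were called. In NS1 5 members were lower, against 7.05% of all genes tested, and 1 was higher, against 5.45%. Whether the share of members exceeded that of all genes was not tested. The 6 calls are therefore read as single genes and not as a property of the repair genes. BRCA1 (ENSG00000012048.22, chromosome 17) had 51.1, 46.9 and 35.4 CPM in WT and 24.01, 23.3 and 19.7 CPM in NS1 cells, about 44.5 ± 8.15 against 22.4 ± 2.31 CPM (mean ± SD, n = 3). The groups did not overlap, and the log2 fold change was -0.99 (SE 0.165, edgeR adjusted p = 0.00252). It was the only one of the 6 called whichever of the 6 libraries was left out. CHEK2, the kinase downstream of ATM, went from 13.7, 11.6 and 14.7 CPM in WT to 8.83, 7.70 and 8.94 CPM in NS1 (log2 fold change -0.65), and RAD51C from 21.0, 18.3 and 19.8 CPM to 13.8, 13.3 and 13.4 CPM (-0.55). XRCC4 (-0.52) and MRE11 (-0.36) were lower as well.

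RAD50, the ATPase that tethers DNA ends with MRE11, was the member called higher. It had 94.5, 92.9 and 86.3 CPM in WT and 141.0, 110.9 and 120.1 CPM in NS1 cells, with no overlap (log2 fold change 0.44, SE 0.112, adjusted p = 0.0209). Its exons share 79.7% of their bases with AC116366.3 (ENSG00000283782) on the same strand, whose log2 fold change was 0.37 (adjusted p = 0.0516). Over the 12 libraries RAD50 had a mean of 110.5 CPM and AC116366.3 of 105.4 CPM. The same reads may be counted in both, so AC116366.3 may not be a separate measurement. The median over the 40 members was -0.13, and the strand exchange, Fanconi and end joining medians were -0.24, -0.09 and -0.11. The number of members called was 3 when only the untreated groups were fitted, 0 without replicate 2 of every group and 1 without replicate 3. Over all genes these fits called 1603 of 17230, 204 of 18070 and 182 of 18186. Among members it was 2 without the NS1 replicate 2, 2 without the NS1 replicate 3 and 3 without the WT replicate 3. Over all genes these 3 fits called 1198 of 18058, 1265 of 18179 and 1594 of 18149.

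With 5-Ad-IAA in both lines 25 members were lower in NS1 than in WT, against 14.5% of all genes tested, and RAD50 was higher, against 13.6%. This comparison shares its NS1 libraries with the inducer comparison and is not independent of it. BRCA1 was lowest, with 55.5, 41.8 and 42.0 CPM in WT and 12.6, 16.7 and 13.6 CPM in NS1 (log2 fold change -1.71, SE 0.17, adjusted p = 2.09e-05). FANCG (-1.25), RAD51C (-1.16), XRCC2 (-1.15), BLM (-1.13) and EXO1 (-1.08) followed. For FANCG the libraries were 51.5, 43.5 and 41.7 CPM in WT and 12.6, 22.5 and 23.0 CPM in NS1, with no overlap. Of the cell-cycle-linked genes 18 of 25 were called (median -0.74), as were 4 of 8 sensing and checkpoint genes in the lower direction, TOPBP1, CHEK1, MRE11 and CHEK2.

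Of the 5 end joining genes 3 were also lower in this comparison, and neither mismatch repair gene was called. XRCC4 had 10.97, 11.8 and 11.4 CPM in WT and 6.29, 6.90 and 7.47 CPM in NS1 (log2 fold change -0.73), and it had already been lower without inducer. XRCC6 had 714.7, 622.8 and 632.4 CPM in WT and 476.2, 449.9 and 476.1 CPM in NS1 (-0.49, SE 0.103, adjusted p = 0.00352). XRCC5 (-0.35, adjusted p = 0.0455) was called in 1 of 6 fits made without a library. LIG4 (0.10) and PRKDC (0.08) were not called. RAD50 was at 0.61 (adjusted p = 0.00145), and AC116366.3 at 0.58. The proliferation list had 25 of 26 genes called lower here, against 14.5% of all genes tested, with a median of -0.80. Leaving out a library or a replicate gave 17 to 26 calls among the 40 members, the fewest without replicate 2.

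**Figure D4:**
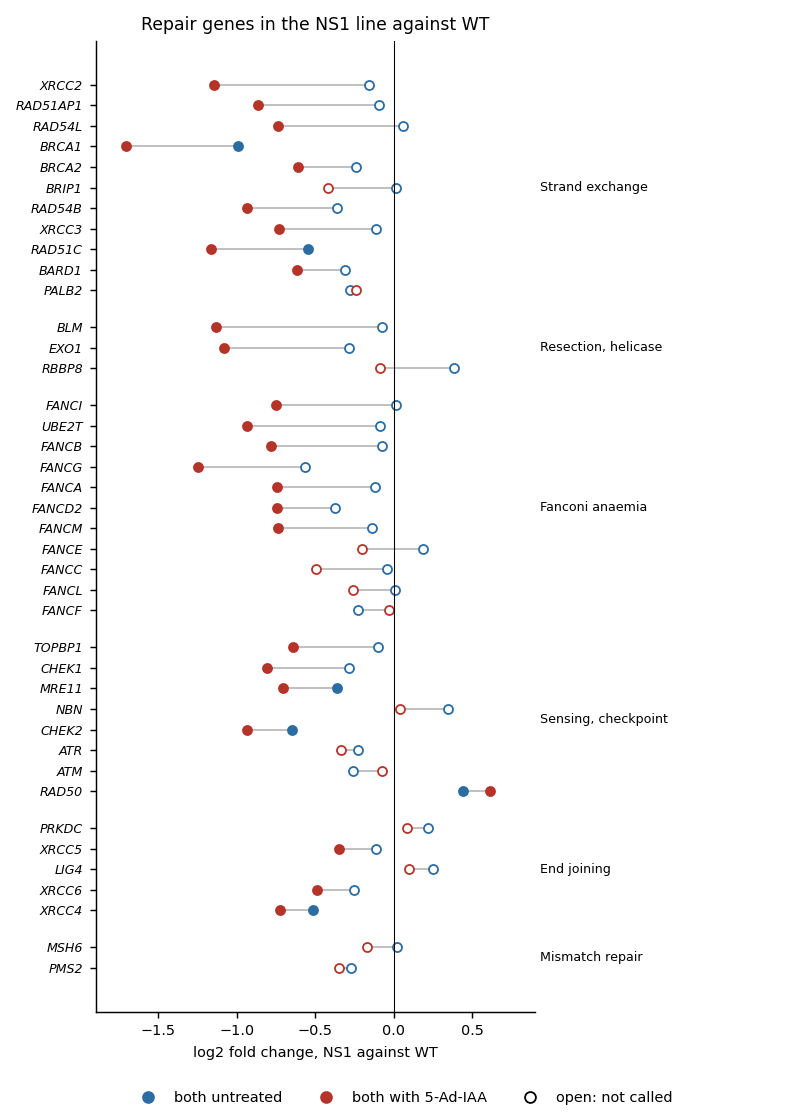
Log2 fold change of NS1 against WT (horizontal axis) for each of the 40 members, ordered by role, with both lines untreated (blue) or both given 5-Ad-IAA (red), 3 libraries a group. Filled points are called. BRCA1 moves from -0.99 to -1.71 and BLM from -0.08 to -1.13, RAD50 lies at 0.44 and 0.61, and PRKDC and LIG4 stay above 0.

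Levels of genes whose proteins form a pair were also set against each other per length of exon, for 6 pairs chosen after the values were seen. The ratio of RAD50 to MRE11 was 1.62 ± 0.137 in untreated WT, 1.75 ± 0.0921 in treated WT, 2.82 ± 0.117 in untreated NS1 and 4.35 ± 0.132 in treated NS1 cells (mean ± SD, n = 3), and the lowest NS1 library of each group was above every WT library. The ratio of RAD50 to NBN was closer between groups, at 0.891, 0.857, 0.965 and 1.29 in the same order. That of BRCA1 to BARD1 was 1.46 ± 0.252, 1.66 ± 0.366, 0.899 ± 0.131 and 0.787 ± 0.0827, so the BRCA1 transcript exceeded that of its partner in the WT libraries and not on average in the NS1 ones. LIG4 to XRCC4 was 0.623 and 0.575 in WT and 1.05 and 1.03 in NS1 cells. FANCI to FANCD2 lay between 4.3 and 5.61 and XRCC6 to XRCC5 between 1.93 and 2.13 in the means of the 4 groups. These ratios are descriptions with no test, and the RAD50 values carry the overlap named above.

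**Figure D5:**
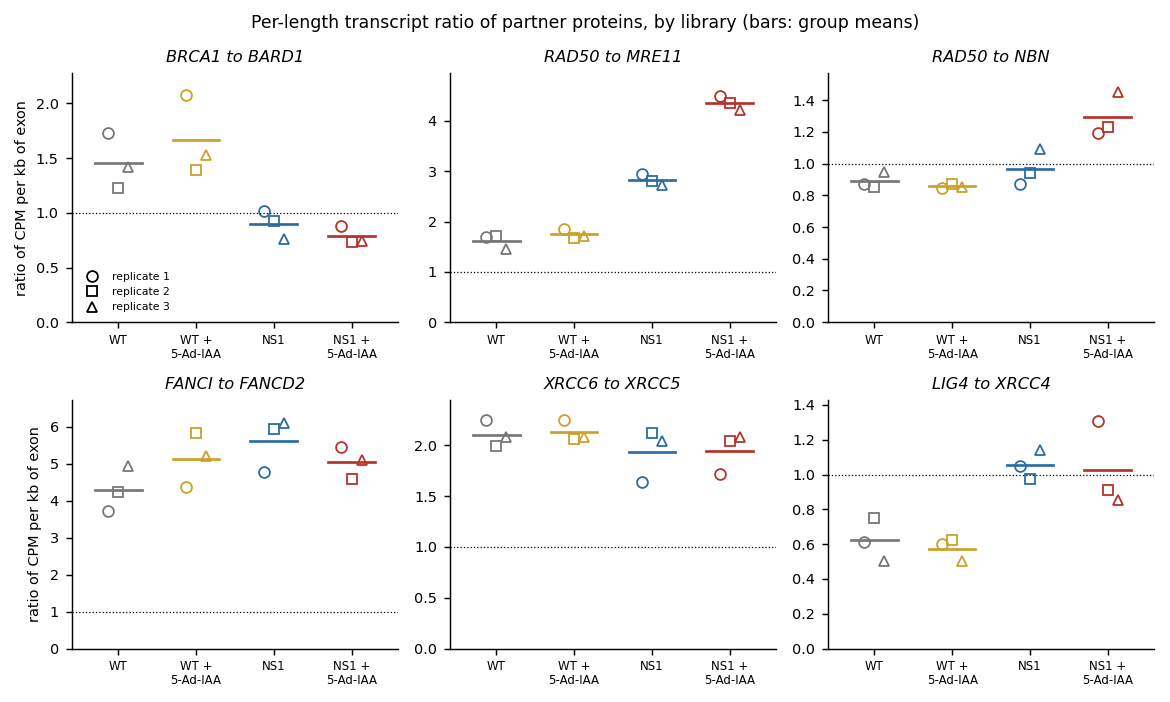
Ratio of CPM per kb of exon (vertical axis, linear from 0) of 6 pairs of partner genes in each of the 12 libraries, by group. Points are libraries, marked by replicate, bars are group means and the dotted line is a ratio of 1. RAD50 to MRE11 has a mean of 1.62 in untreated WT and 4.35 in treated NS1 cells, and XRCC6 to XRCC5 stays between 1.64 and 2.25 in all libraries.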

How the data were processed

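The authors deposited one table of read counts per gene, not normalised, with a column for each of the 12 libraries. Per the submitters' processing notes the tools were STAR 2.7.3a and featureCounts 1.6.4 and the build hg38. The annotation, the settings and the use of strand are not given in the sources used here, so overlapping genes may share reads. Symbols were found for 60306 of 60603 identifiers. Gene positions and exon lengths came from GENCODE release 29 (GRCh38), and a start and end are given only where the identifier has the same version (18 of 40 members).

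Counts were fitted with edgeR 4.0.16 in R 4.3.3 (filterByExpr, TMM, glmQLFit, glmQLFTest, two-sided), in one model of all 12 libraries with a mean for each group. P-values were adjusted over 17775 genes, and genes were called at an adjusted p under 0.05. The standard error is the log2 fold change divided by the square root of F. Alternatives were RLE and unscaled totals, other filters, DESeq2 1.42.0, only the groups compared, replicate blocks, and left-out libraries.

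Whether same-numbered libraries pair was checked by the correlation of their deviations from the group means. It was 0.767, 0.473 and 0.483 between untreated and treated NS1 libraries and 0.802, 0.432 and 0.263 in WT. Libraries of a line with different numbers were not compared. The deviations of 3 libraries add up to 0, so 1 replicate that differs in both groups can make all 3 values positive. Whether each number pairs libraries within a line is therefore not settled, and the blocked fits assume it. All 40 members are named. From each other list up to 3 called genes in each direction with the largest change and a mean of at least 1 CPM are named, apart from genes that only identify a list. CDKN1A and MDM2 were named after their values were seen. The members and lists were chosen with earlier results of these data known. A list of further mismatch repair genes is not reported here.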

Additional observations from a re-analysis of the deposited data

How the results depend on the processing

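No called member changed sign under any alternative run. For 5-Ad-IAA in NS1 cells, 13 members were called; the number was 21 with the replicate block and 28 with the replicate block within each line, and 0 to 13 when a library or a replicate number was left out. It was 9 to 19 under the other 6 alternatives. For WT cells the number was 0 in every alternative. Between the untreated lines it was 3 with only the groups compared, 0 to 8 when a library or replicate was left out, and 9 with the replicate block, against 6. Nothing in the labels says that the numbers pair libraries, within a line or across lines. The 12 correlations of same-numbered libraries across lines lay between -0.0099 and 0.285, 11 above 0 and 9 above 0.1 (0.138, 0.094 and 0.235 untreated, 0.147, 0.136 and -0.0099 treated). Of 6 untreated libraries 6, and of 6 treated ones 4, correlated best with their own number, a hint from the data and not the design. With inducer in both lines it was 29 with the replicate block and 17 to 26 with a library or replicate left out, against 26. For the interaction, against 0, it was 6 with no filter on low counts, 2 with at least 10 counts in every library, 5 with DESeq2, 6 with the replicate block, 18 with the replicate block within each line, and 0 to 5 with a library or replicate left out. The all-gene counts of the first 3 of these interaction fits are not given, so their counts are not read as results about the members. The cause of the changes in the number of calls was not tested, apart from the fewer libraries of the fits that leave some out.

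Over all genes, the inducer in NS1 cells gave 1093 calls, 1801 with no filter, 2421 and 4596 with the 2 blocks, and 0 to 2021 with a library or replicate left out. Untreated lines gave 2222 calls, 3908 with the block and 182 to 3466 with libraries left out, and treated lines 5007 and 1632 to 6007. The interaction gave 4 calls and between 0 and 2495 elsewhere. With unscaled library totals the calls split into 370 higher and 759 lower for the inducer in NS1 (490 and 603 with TMM) and 1863 and 3182 for the treated lines (2426 and 2581).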

Other observations

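Repair genes outside the break repair pathways were also measured in NS1 cells with 5-Ad-IAA. Of 26 genes of base and nucleotide excision repair, 2 were called lower, against 3.39% of all genes, and 0 higher, with a median log2 fold change of -0.13. With the replicate block within each line 7 of the 26 were lower, against 12.8% of all genes. NEIL3, a DNA glycosylase expressed in dividing cells, went from 11.2 ± 1.53 to 6.23 ± 0.555 CPM (mean ± SD, n = 3, log2 fold change -0.84, edgeR adjusted p = 0.0104). ERCC1, a subunit of the nuclease that cuts beside bulky lesions and crosslinks, went from 84.0 ± 2.23 to 61.6 ± 1.85 CPM (-0.45, adjusted p = 0.0268).

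Targets of p53, the transcription factor activated by DNA damage, did not move in 1 direction in these cells. Of 15 such genes, 2 were called higher, against 2.76% of all genes, and 2 lower, against 3.39%. The higher ones were BTG2 (log2 fold change 1.53, from 2.13 ± 0.242 to 6.15 ± 1.66 CPM) and TP53INP1 (1.34, from 3.996 ± 0.927 to 10.1 ± 2.86 CPM). AEN (-0.80) and FAS (-0.54) were the lower ones. With the replicate block within each line 3 were higher and 4 lower, against 2318 and 2278 of 17775 genes. CDKN1A had 74.5 ± 23.3 CPM untreated and 89.4 ± 5.38 CPM treated and MDM2 55.4 ± 6.05 and 37.1 ± 6.07 CPM, and neither was called. Of the 15 genes 4 were higher without overlap, and 4, among them MDM2, were lower without overlap. Of all genes tested 14% were lower without overlap.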
